A study of Mus musculus with 3 samples.

Results

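The serpin protease inhibitor family was taken as every probe set whose single annotated gene symbol began with Serpin, followed by a clade letter from a to i and a number. The rule found 56 probe sets of 40 genes among 34958 probe sets with 1 gene symbol, which covered 18194 genes. For 28 genes there was 1 probe set and for 12 there were several. Family members without a single-gene probe set in the annotation were not analysed here.

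The arrays measured Melan-a NRAS61K cells, mouse melanocytes made to carry the NRAS61K oncogene, which doxycycline switches on. The study's title concerns the generation of tumorigenic cells from cells made senescent by this oncogene. Total RNA from cells given 1 µg/ml doxycycline for 6, 14 or 28 days was hybridised to 1 Affymetrix array per time point. The labels also name 10 days, which was not analysed here.

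All 3 groups carried the same oncogene and agent and grew on plastic dishes in DMEM with dialyzed calf serum, penicillin and streptomycin. No array of untreated cells was used here, so day 6 served as the earliest point and not as a control. The labels do not give the promoter that responds to doxycycline, nor whether the line was 1 clone. Since each time point had 1 array, no difference below has a replicate check, and no test, SD between samples or p-value is given.

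Serpins are proteins of a common fold, most of which inhibit serine proteases. An exposed loop acts as bait: the protease cuts it, stays bound by a covalent bond and is pulled out of shape as the loop inserts into a central sheet, so each inhibitor molecule is used once. Secreted members restrain coagulation, fibrinolysis, inflammation and complement, clade B members work mainly inside cells, and some members have lost inhibition and act as hormone carriers, a collagen chaperone or secreted signals.

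Values are the deposited log2 intensities, and a difference of 1 unit is a 2-fold difference. To judge which values hold signal, 65 genes that melanocytes should not use were read through their 97 probe sets, and the 90th percentile of these per array, 22.84, 22.62 and 22.84 on days 6, 14 and 28, is called the background. Between probe sets of the same gene the differences had an SD of 0.37 between days 6 and 28 (5303 genes). It was 0.34 between days 6 and 14 (5420 genes) and 0.28 between days 14 and 28 (5372 genes). This SD, the only spread available, compares probe sets on the same arrays. It holds no variation between cultures or hybridizations, so it is not an error of the differences between time points. Of 16 melanocyte markers 12 were above the background, while Tyr, Kit, Rab27a and Trpm1 were below it on all 3 arrays. Dct, a pigment enzyme, was at 23.82, 29.17 and 28.03 on days 6, 14 and 28, so the melanocyte markers themselves moved between the arrays. In whole cultures fewer cells of a type and less RNA per cell cannot be told apart.

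Of the 40 serpin genes, 16 were above the background on at least 1 array, 12 of them on all 3 arrays, and 24 were below it throughout. Over all genes 11873 of 18194 were above it on at least 1 array. The 16 serpins comprised 2 of 3 genes of the Serpina3 group, 4 of 7 inhibitors of plasminogen activators, thrombin and plasmin, and 7 of 16 intracellular clade B genes. A further 2 of 5 members without protease inhibition and 1 of 5 other members were above the background. None of the 3 alpha-1-antitrypsin genes was, nor the gene of C1 inhibitor.

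Most measured serpins did not differ 2-fold between days 6 and 28, and neither did most genes. A gene is called described in a comparison when either of its arrays passed the background. For day 28 against day 6, 15 serpins were described, of which 1, Serpina3n, was 2-fold higher, beside 6.6% of the 11588 genes described. In the same comparison 1, Serpinb9b, was 2-fold lower, beside 4.01% of all genes. The 2 of 15 together made 13.3%, near the 10.6% of all genes that were 2-fold apart in either direction.

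For day 14 against day 6, 2 of 15 serpins were 2-fold higher, Serpina3n and Serpina12, beside 5.5% of 11718 genes, and 2 were lower, Serpinb9b and Serpinb2, beside 3.87%. That made 4 of 15, beside 9.37% of all genes in either direction. For day 28 against day 14, 2 of 16 were 2-fold higher, Serpina3n and Serpini1, beside 2.18% of 11700 genes, and 0 were lower, beside 1.45%. These 2 made 12.5%, beside 3.63% of all genes in either direction. With so few genes a share moves by several percentage points with each gene.

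The median difference of the serpins was -0.13 from day 6 to day 28, -0.19 over the step from day 6 to 14, 0.05 over the step from day 14 to 28, and all 3 signs turned when the arrays were shifted to equal reference genes (0.10, 0.30 and -0.20). The medians of all genes described were 0.01, -0.03 and 0.03. With dim values raised to the background the serpin medians were -0.13, -0.19 and 0.11.

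**Figure D1:**
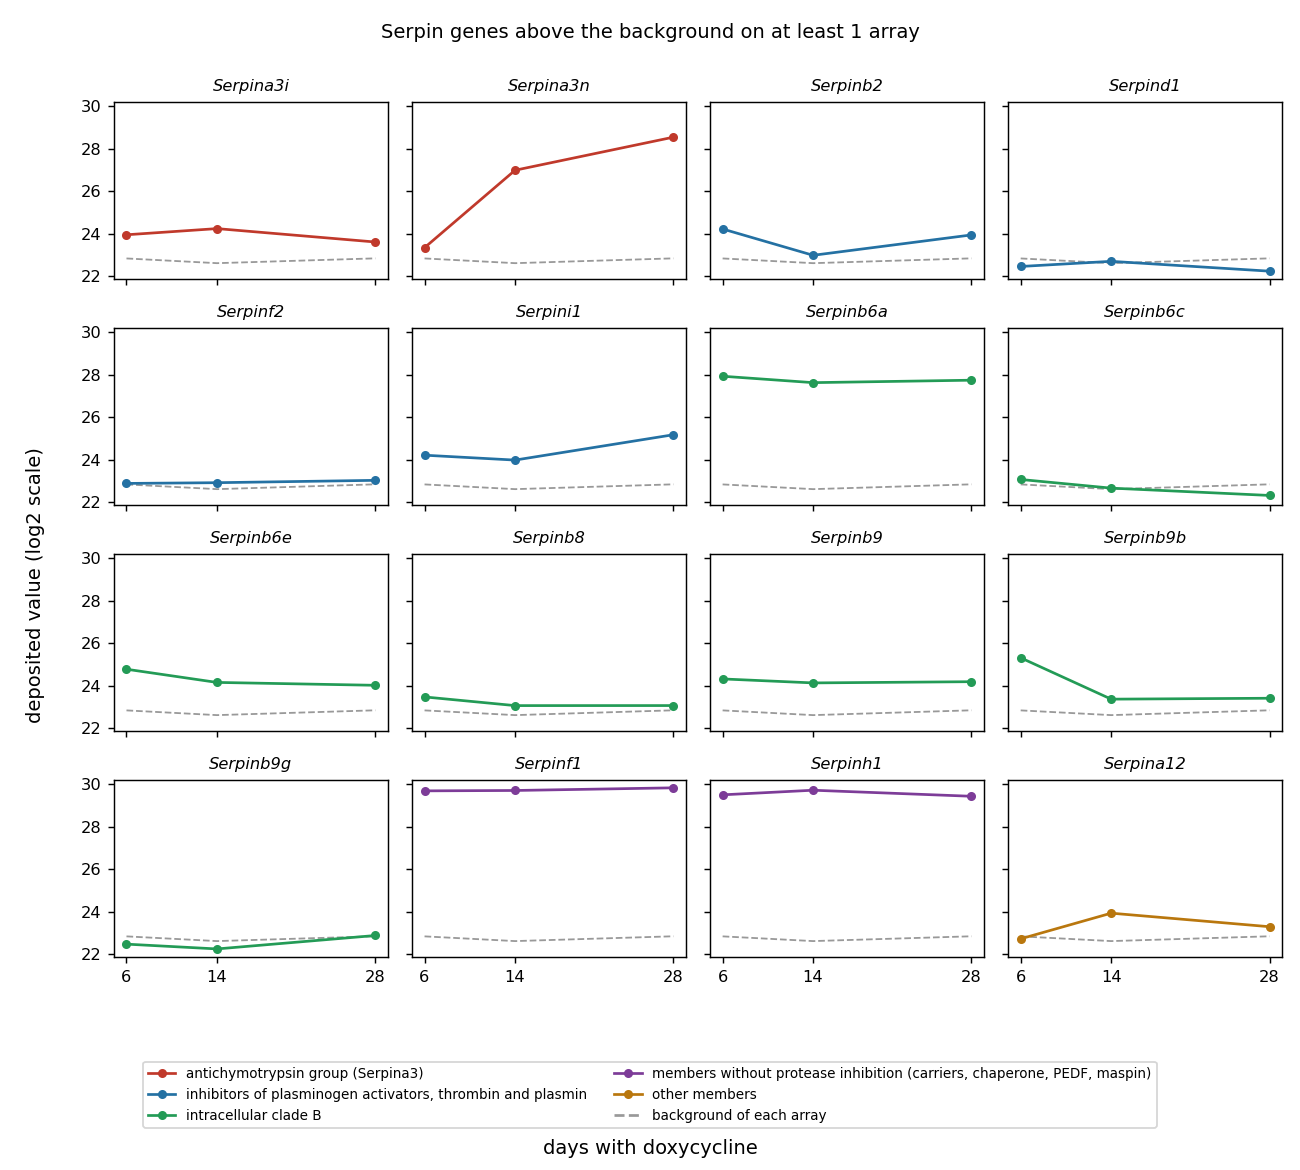
Deposited log2 value of the 16 serpin genes above the background on at least 1 array, against days with doxycycline, 1 panel per gene, coloured by role. Each point is 1 array and the dashed line is that array's background. Serpina3n climbs from 23.35 to 28.54, Serpinb9b drops after day 6, and most other lines change less than 2-fold in each step.

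By 2-fold steps, 11 of the 16 genes did not differ 2-fold in either the step from day 6 to 14 or the step from day 14 to 28, a course shared by 10495 of 11873 genes (88.4%). Serpina3n alone was 2-fold higher in both steps, a course that 43 genes had in all. Serpina12 was higher in the earlier step only, Serpini1 in the later step only, and Serpinb9b and Serpinb2 were lower in the earlier step only.

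**Figure D2:**
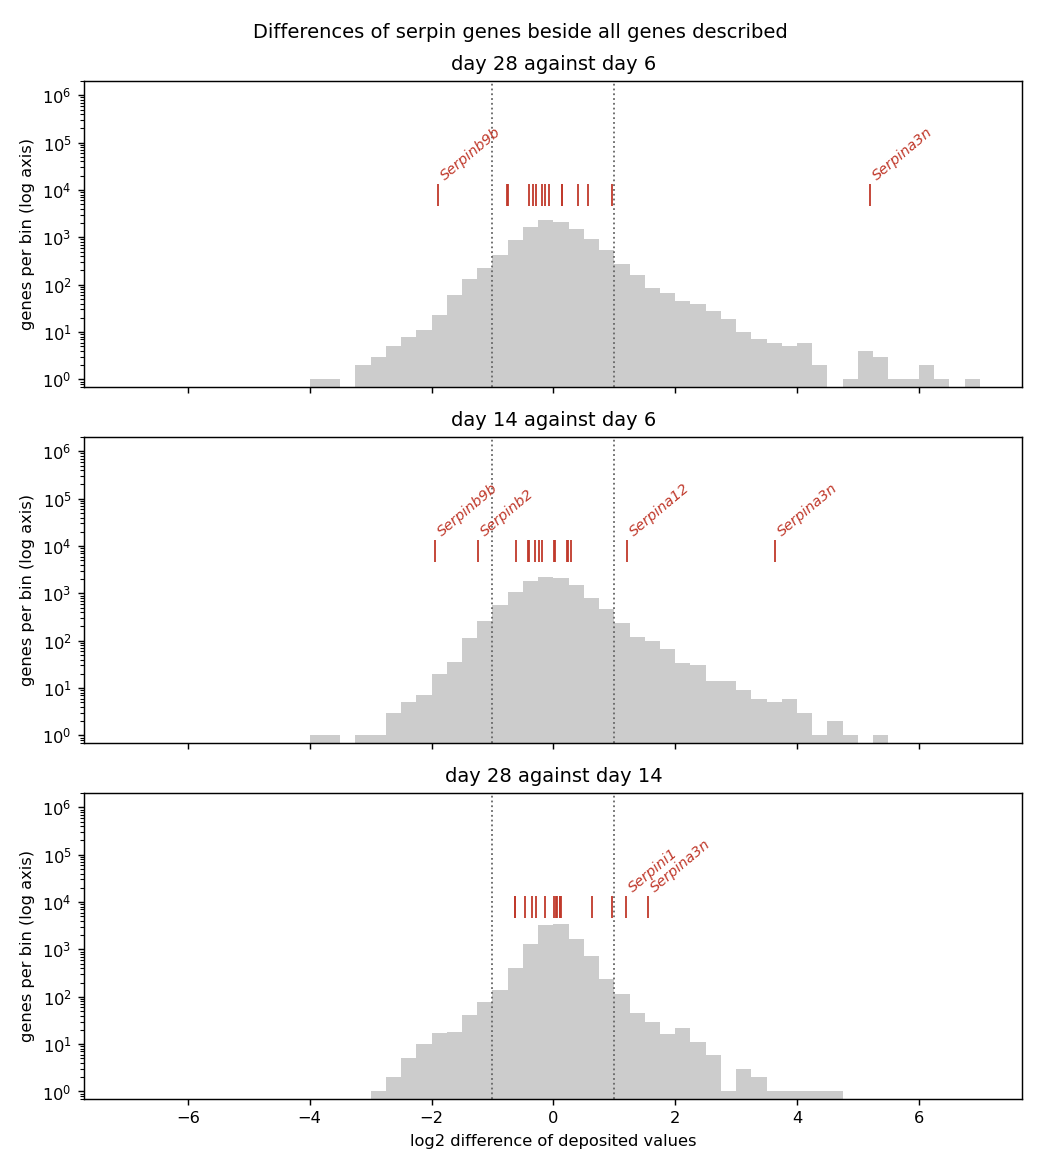
Differences of the serpins (red ticks) beside the distribution of all genes described (grey bars, genes per bin of log2 difference, log axis) for the 3 comparisons. Dotted lines mark 2-fold and the serpins beyond them are named; Serpina3n lies at 5.19, 3.64 and 1.55, Serpinb9b at -1.90 and -1.94 against day 6, and most ticks lie inside the lines.

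The Serpina3 group descends from a single antichymotrypsin gene that has multiplied in rodents into a cluster of neighbours on chromosome 12. Serpina3n, the best-studied of them, is a secreted acute-phase inhibitor of granzyme B, leukocyte elastase and cathepsin G. It was at 23.35 on day 6, 26.98 on day 14 and 28.54 on day 28. Its level was near the background on the day 6 array and far above it on both later ones. The value was 12.4-fold higher on day 14 than on day 6, 36.5-fold higher on day 28 than on day 6 and still 2.94-fold higher on day 28 than on day 14. Among all genes described these differences ranked 17th, 11th and 92nd from the top. Serpina3n has 1 probe set here, so no second probe set checked it.

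Serpina3i, its cluster neighbour, was at 23.95, 24.24 and 23.61 on days 6, 14 and 28. Its differences from day 6 of -0.34 on day 28 and 0.29 on day 14 were smaller than the SD between probe sets of a gene. From day 14 to day 28 it differed by -0.63, more than that SD but less than 2-fold. Serpina3a was below the background on all 3 arrays. The copies of this cluster are alike in sequence, and how far each probe set reads its neighbours was not tested.

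The upstream sequences of the pair are shown because these neighbours differed so much in their values. Each is the 250 bases before the gene's start on the plus strand, from RefSeq (GRCm38.p6), at chr12:104406458-104406707 for Serpina3n and chr12:104262872-104263121 for Serpina3i. Capitals mark runs of at least 10 bases that were identical in the alignment of the pair.
Serpina3n: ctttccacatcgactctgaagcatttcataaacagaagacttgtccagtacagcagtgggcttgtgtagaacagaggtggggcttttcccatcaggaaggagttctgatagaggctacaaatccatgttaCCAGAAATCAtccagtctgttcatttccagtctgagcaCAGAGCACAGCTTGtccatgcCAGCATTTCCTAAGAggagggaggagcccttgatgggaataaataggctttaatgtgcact
Serpina3i: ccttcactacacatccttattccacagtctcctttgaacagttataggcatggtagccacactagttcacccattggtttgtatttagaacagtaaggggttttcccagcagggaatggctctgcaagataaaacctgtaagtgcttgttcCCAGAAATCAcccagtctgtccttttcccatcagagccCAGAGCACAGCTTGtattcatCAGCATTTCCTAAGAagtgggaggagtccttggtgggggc
Over the alignment 178 of 282 columns were identical (63.1%), against 48.5% for Serpina3n and Serpina3a. The 3 identical runs lie close together nearer to the start than to the far end. A search for the STAT motif TTCNNNGAA found TTCCCAGAA in Serpina3i, beginning 102 bases before the start. The aligned bases of Serpina3n were TTACCAGAA, identical at 8 of 9 positions, with the substitution C3A counted from 1 at the motif's 5′ end and with the base of Serpina3i given before that of Serpina3n.

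The STAT motif was in 7.01% of 32817 RefSeq promoters, and among the 16 measured serpins in those of Serpina3i, Serpinb2 and Serpinb6a. The windows searched were the 250 bases before a start, on both strands. The promoters counted left out duplicate windows, sequences of incomplete length and a whole chromosome that carries none of the serpins analysed. A gene counted where any of its starts held a match, and matches of different motifs may overlap. Of the other 5 motifs, the AP-1 motif TGANTCA (6.75% of promoters) was in Serpinb2 and Serpinb8, and the C/EBP motif TTGCNNAA (9.57%) in Serpina12 and Serpinb2. The TATA motif TATAAA (12.4%) was in Serpinb2, the E-box CANNTG (66.2%) in 7 of the 16, and the heat shock letters GAANNTTC (6.69%) in none. These matches describe letters in a window and no factor's binding was measured.

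Genes of the acute phase and STAT3 response, to which antichymotrypsin belongs, were set beside Serpina3n. For this and the following lists, counts and medians are for day 28 against day 6 with dim values raised to the background, so that a gene counts as 2-fold only where its bound is. By that rule 5.46% of all 11588 genes described were 2-fold higher and 3.48% lower. Of 27 listed genes on the array, 12 were above the background on at least 1 array. Below it throughout were, among others, Saa1, Saa2, Saa3, Hp, Lrg1, Orm1, Orm2, Orm3, Crp, Osmr and Bcl3. Of the 12 listed genes described, 3 were 2-fold higher and 0 lower, with a median of 0.69. Lcn2, an iron-binding acute-phase protein, was at 22.34, 26.00 and 28.35 on days 6, 14 and 28. That made it at least 45.6-fold higher on day 28 than on day 6, where it was not above the background, and 5.08-fold higher on day 28 than on day 14. Like Serpina3n, it was higher at each later point. Cp, a copper carrier, was 4.53-fold higher on day 28 than on day 6, and Steap4, a metalloreductase, at least 1.74-fold higher. Stat3 itself was at 26.81, 27.28 and 27.29, and its feedback inhibitor Socs3 at 26.52, 27.44 and 27.45, 1.90-fold higher on day 28 than on day 6.

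Liver cells and leukocytes are the usual sources and neighbours of acute-phase serpins, so their markers are given here. Of 13 hepatocyte markers 2 were above the background on at least 1 array, and the mean of the list was 21.06, 20.81 and 20.42 on days 6, 14 and 28. Albumin (Alb) was below the background on all 3 arrays. Most of these markers, Alb, Apoa1, Apoa2, Ahsg, Fgb, Fga, Cyp2e1, Cyp3a11 and Tat, are also among the silent genes that set the background. Their low count was thus largely fixed in advance and says little about liver cells. Of 12 macrophage and leukocyte markers 5 were above it, with list means of 22.60, 22.65 and 22.94. Those above it were Cd68 (25.09, 23.98 and 25.99), Csf1r (24.36, 24.32 and 24.04), Adgre1, Fcgr1 and Lyz2. Below it throughout were Ptprc, Spi1, Tyrobp, Itgam, Cd14, Cd3e and Cd79a. Lyz2, a lysozyme found on that list, was at 24.57, 27.17 and 27.31. Like Serpina3n it was higher on day 14 than on day 6, by 6.09-fold. Unlike Serpina3n it was nearly level from day 14 to day 28, at 1.10-fold higher. The part of Lyz2 in the result was not tested.

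The known targets of Serpina3n among leukocyte proteases were not measurable. Granzyme B (Gzmb) and neutrophil elastase (Elane) were below the background on all 3 arrays. Of the 10 trypsin-fold proteases of granules and the cell surface described, 2 were 2-fold higher (5.46% of all genes) and 1 lower (3.48%), with a median of -0.21. Klk8, a secreted kallikrein, was 3.23-fold higher and Prss22 2.48-fold higher on day 28 than on day 6, and Prss23 was 2.53-fold lower.

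Alpha-1-antitrypsin, the main plasma inhibitor of elastase, has several gene copies in mice. Serpina1b, Serpina1c and Serpina1f were below the background on all arrays. The gene of C1 inhibitor, Serping1, which restrains the complement proteases C1r and C1s, was also below it. The proteases themselves were not. C1ra was at 23.02, 25.04 and 25.36 on days 6, 14 and 28, 5.08-fold higher on day 28 than on day 6. C1s1 was at least 3.89-fold and C2 4.65-fold higher in that comparison. Over the complement list 4 of 8 genes described were 2-fold higher, beside 5.46% of all genes, and 0 lower, beside 3.48%, with a median of 1.08.

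Among inhibitors of plasminogen activators, Serpini1 (neuroserpin, a secreted inhibitor of tissue plasminogen activator best known from neurons) was at 24.21, 23.98 and 25.17 on days 6, 14 and 28. It was level between days 6 and 14 and higher on day 28, by 2.28-fold against day 14 and 1.95-fold against day 6. A second probe set of the gene was at 22.78, 23.30 and 24.31, of which day 6 was below the background, so that day 28 stood 1.02 above day 14 and was at least 2.78-fold higher than day 6. The third was below the background on all arrays. Both probe sets with signal were thus highest on day 28, and they differed in whether day 14 was above day 6. With the mean of all 3 probe sets, or the arrays shifted to equal reference genes, Serpini1 fell short of 2-fold for day 28 against day 14. The same shift took it past 2-fold for day 28 against day 6, at 1.19 in place of 0.96. Of 10 neuron and glia markers, 6 were above the background, with list means of 22.78, 23.23 and 23.19. These means hide single genes that moved. For day 28 against day 6, with dim values raised to the background, 2 of 6 described were 2-fold higher (5.46% of all genes) and 2 lower (3.48%). Higher were Nefl (22.89 on day 14 and 26.25 on day 28, below the background on day 6) and S100b (4.38-fold). Lower were Tubb3 and Mbp. The part of these markers in the result was not tested.

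Serpinb2 (plasminogen activator inhibitor 2, an inhibitor of urokinase often induced by inflammatory stimuli) was at 24.22, 22.99 and 23.94 on days 6, 14 and 28. Its value was 2.35-fold lower on day 14 than on day 6 and then 1.94-fold higher on day 28 than on day 14. Days 6 and 28 were close to each other and day 14 was near the background. The drop was -1.24 as deposited and -0.75 with the arrays shifted to equal reference genes, so it held its sign and not its 2-fold size.

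Serpinf2 (alpha-2-antiplasmin, the chief inhibitor of plasmin) was at 22.89, 22.92 and 23.03, just above the background on each array. Serpind1 (heparin cofactor II, an inhibitor of thrombin) was at 22.46, 22.70 and 22.24 and above the background on day 14 only. Antithrombin (Serpinc1), the protein C inhibitor (Serpina5) and the protein Z-dependent inhibitor (Serpina10) were below it throughout.

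The proteases and receptors that these serpins act on were read from a list of plasminogen activation genes, of which 9 were described, with 1 higher (5.46% of all genes), 0 lower (3.48%) and a median of 0.03. Plat, the tissue activator that neuroserpin inhibits, was at 28.00, 28.29 and 28.84 on days 6, 14 and 28, 1.80-fold higher on day 28 than on day 6. Plau, the urokinase that Serpinb2 inhibits, was below the background on all arrays. Its receptor Plaur was at 27.35, 26.31 and 26.79, 2.05-fold lower on day 14 than on day 6. Serpinb2 and Plaur were thus both lowest on day 14. Mst1, a plasminogen-like growth factor, was the gene 2-fold higher on day 28 than on day 6 (2.26-fold), and vitronectin (Vtn) was level at 22.99, 22.82 and 23.05.

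Of 8 thrombin and coagulation genes described, 2 were 2-fold higher, beside 5.46% of all genes, and 0 lower, beside 3.48%, with a median of 0.63. F3 (tissue factor, which starts coagulation) was at 25.61, 27.51 and 26.90, 3.74-fold higher on day 14 and 2.45-fold higher on day 28 than on day 6. Pros1 (protein S, a cofactor of the anticoagulant protein C) was 2.53-fold and F5 (factor V) at least 1.62-fold higher on day 28 than on day 6. The thrombin receptor F2r was level at 29.62, 29.42 and 29.50.

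Clade B serpins lack a classical secretion signal and protect cells from proteases released in their own cytosol. Serpinb9b, a close copy of the granzyme B inhibitor Serpinb9, was at 25.31, 23.37 and 23.41 on days 6, 14 and 28. Its value was high on day 6 only, 3.84-fold lower on day 14 and 3.73-fold lower on day 28. Among all genes described these differences ranked 22nd and 36th from the bottom. It has 1 probe set here.

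Serpinb9 itself, which shields cells from granzyme B, was at 24.32, 24.13 and 24.19 on days 6, 14 and 28, with all 3 differences within 0.19 of zero. Its other probe set was below the background. Serpinb9g was at 22.48, 22.25 and 22.88, above the background on day 28 only and there at least 1.20-fold higher than on day 14. Serpinb9c and Serpinb9d were below it throughout. A probe set annotated to Serpinb9e, Serpinb9f, Serpinb9g and Serpinb9h together, which the rule leaves out, was level at 24.53, 24.34 and 24.43. Serpinb9 was the only other single-gene copy above the background on days 6 and 14. Among single-gene copies a drop after day 6 could thus have been read in Serpinb9 alone, where the difference was -0.19. In the probe set shared by 4 genes, also above the background, it was -0.18.

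The upstream sequences of Serpinb9b and Serpinb9 are shown because their values parted after day 6. They lie at chr13:33027164-33027413 and chr13:33004291-33004540 (RefSeq, GRCm38.p6, plus strand, 250 bases before the start), and capitals mark identical runs of at least 10 bases.
Serpinb9b: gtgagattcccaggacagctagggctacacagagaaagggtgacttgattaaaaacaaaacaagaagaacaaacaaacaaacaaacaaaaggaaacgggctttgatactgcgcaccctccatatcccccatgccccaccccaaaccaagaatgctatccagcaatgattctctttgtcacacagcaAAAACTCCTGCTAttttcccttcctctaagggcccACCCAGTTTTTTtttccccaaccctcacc
Serpinb9: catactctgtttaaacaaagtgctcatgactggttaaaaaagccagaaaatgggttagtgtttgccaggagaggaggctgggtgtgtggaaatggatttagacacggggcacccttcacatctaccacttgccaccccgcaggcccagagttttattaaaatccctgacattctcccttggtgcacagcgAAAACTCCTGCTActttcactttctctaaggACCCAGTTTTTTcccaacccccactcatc
The alignment had 163 identical columns of 280 (58.2%), with 2 such runs near the start. Serpinb9b and Serpinb9g shared 48.3%.

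Serpinb6a, an intracellular inhibitor of cathepsin G and other proteases, was at 27.92, 27.62 and 27.74 and did not differ 2-fold. Serpinb6e was at 24.77, 24.15 and 24.02, 1.69-fold lower on day 28 than on day 6. Serpinb6c was at 23.07, 22.67 and 22.32, below the background on day 28 and at least 1.17-fold lower there than on day 6. The probe sets of Serpinb6c and Serpinb6e carry the suffixes that Affymetrix gives to probes shared between transcripts, so these values are uncertain as those of single genes.

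Serpinb8, an intracellular inhibitor of furin, was at 23.47, 23.06 and 23.07, and its other probe set was at 22.72, 22.82 and 22.70, near the background. Below it on all arrays were the elastase inhibitors Serpinb1a and Serpinb1b and the squamous epithelial members Serpinb3a, Serpinb7, Serpinb11 and Serpinb12, besides Serpinb6b. Both probe sets of Serpinb1a, chosen here after their values were seen, were highest on day 28 without passing the background, at 20.93, 21.77 and 22.60 and at 19.79, 21.74 and 22.59. Keratinocyte markers, which mark the cells of several of these members, were above the background for 3 of 10 genes, with list means of 22.18, 22.27 and 22.21.

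For the caspase and granzyme death pathway that clade B serpins touch, 1 of 10 genes described was 2-fold higher (5.46% of all genes) and 0 lower (3.48%), with a median of 0.02. Casp4, an inflammatory caspase, was 2.88-fold higher. Clade B members also restrain lysosomal cathepsins that leak into the cytosol. A list of legumain and cathepsins, not all of the papain fold, had 9 genes described. Of these 3 were 2-fold higher and 0 lower, beside the same 5.46% and 3.48%, with a median of 0.47. Ctsf was 4.95-fold, Ctso 2.55-fold and the legumain gene Lgmn 2.04-fold higher on day 28 than on day 6. The abundant lysosomal Ctsb (29.57, 29.98 and 30.02) and Ctsl (29.86, 30.12 and 30.12) did not differ 2-fold, and Ctss was below the background.

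**Figure D3:**
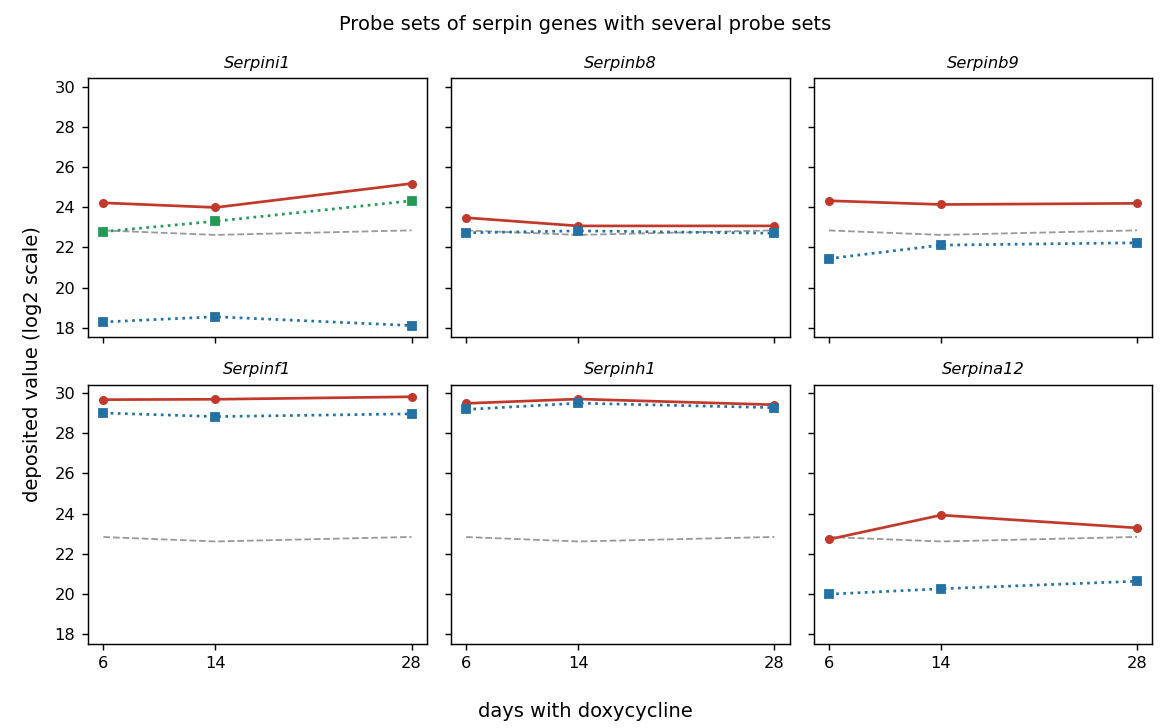
Deposited log2 values of all probe sets of the 6 measured serpin genes with several, against days with doxycycline. Solid red circles show the probe set used for the gene, dotted squares the others and the dashed grey line the background; the pairs of Serpinf1 and Serpinh1 run level together, both brighter probe sets of Serpini1 end highest on day 28, and the other probe set of Serpina12 stays below the background.

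Serpinf1 and Serpinh1 do not inhibit proteases. Serpinf1 (pigment epithelium-derived factor, a secreted protein known for restraining vessel growth) was at 29.67, 29.69 and 29.82 on days 6, 14 and 28. A second probe set was at 29.01, 28.83 and 28.97. Both were far above the background and level over the 3 arrays. Pnpla2, a lipase that binds the factor, was at 25.71, 25.92 and 25.99.

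Serpinh1 (HSP47, the chaperone that helps collagen fold in the endoplasmic reticulum) was at 29.49, 29.71 and 29.42, with a second probe set at 29.19, 29.50 and 29.28. It too was level. Of 20 other collagen folding genes described, 2 were 2-fold higher (5.46% of all genes) and 0 lower (3.48%), with a median of 0.39. These were Fkbp14, a prolyl isomerase (2.64-fold), and P4ha1, a prolyl hydroxylase subunit (2.04-fold). Of 9 collagen genes described for day 28 against day 6, 0 were 2-fold higher (5.46% of all genes) and 0 lower (3.48%), with a median of -0.08. Some were not level in between. By measured values for day 14 against day 6, 3 of 9 were 2-fold higher (Col2a1, Col3a1 and Col11a1), beside 5.5% of all genes. For day 28 against day 14, 2 of 8 were lower (Col3a1 and Col11a1), beside 1.45% of all genes. Col1a1, the main fibrillar collagen, was at 23.97, 23.39 and 23.60. Of 17 heat shock genes, whose response also drives HSP47, 1 was 2-fold higher (5.46% of all genes) and 0 lower (3.48%), with a median of -0.26. Hspa1b was 2.21-fold higher on day 28 than on day 6, while Ahsa1 was 1.84-fold and Hspe1 1.81-fold lower.

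The hormone carriers Serpina6 (cortisol) and Serpina7 (thyroxine) were below the background throughout, as was Serpinb5 (maspin, an epithelial protein lost from many carcinomas).

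Serpina12 (vaspin, an adipose-derived inhibitor of kallikrein 7) was at 22.72, 23.93 and 23.29 on days 6, 14 and 28. It was below the background on day 6 and above it afterwards. That made it at least 2.13-fold higher on day 14 and at least 1.37-fold higher on day 28 than on day 6. From day 14 to day 28 it was 1.56-fold lower. With the mean of both its probe sets, or where both arrays had to pass the background, Serpina12 was no longer among the genes 2-fold higher on day 14. Its other probe set, at 20.00, 20.26 and 20.64, was below the background on all arrays. Serpini2, Serpina9, Serpina11 and the pseudogene Serpina4-ps1 were below it as well. Over the 24 genes below the background the values ran from 6.87 to 22.77, and no difference is given for them.

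Inhibitors of other folds were set beside the family. Of 13 described, 3 were 2-fold higher, beside 5.46% of all genes, and 0 lower, beside 3.48%, with a median of 0.42. Reck, a membrane-anchored inhibitor of metalloproteases, was 4.08-fold higher, Spint1, a Kunitz inhibitor of matriptase, 3.34-fold higher, and Itih5, a hyaluronan-binding relative of trypsin inhibitors, at least 1.78-fold higher.

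Serpin complexes are taken up and cleared by receptors of the LDL receptor family. Of 13 clearance and PEDF receptor genes described, 2 were 2-fold higher (5.46% of all genes) and 1 lower (3.48%), with a median of 0.28. Lrp1, the main clearance receptor, was at 27.13, 28.01 and 27.99, 1.82-fold higher on day 28 than on day 6. Lrp8 was 2.97-fold lower, and the proteoglycan Gpc1 and the sorting receptor Sort1 were 2.24-fold and 2.20-fold higher.

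Cytokine programs known to act on serpin genes were read as well. Of 22 TGF-beta response genes described, 3 were 2-fold higher and 3 lower, beside 5.46% and 3.48% of all genes, with a median of 0.29. Tgfbi was at least 4.22-fold higher while Tagln was 4.51-fold and Ccn1 2.60-fold lower. Tgfb1 was at 23.33, 23.23 and 23.68 and Tgfb2 at 23.62, 23.79 and 23.39. Of 23 interferon response genes, 5 were 2-fold higher and 0 lower, beside the same shares of all genes, with a median of 0.40. The immunoproteasome subunit Psmb9 was at least 12.9-fold, the peptide transporter Tap1 5.84-fold and Ifi27l2a 5.61-fold higher on day 28 than on day 6.

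**Figure D4:**
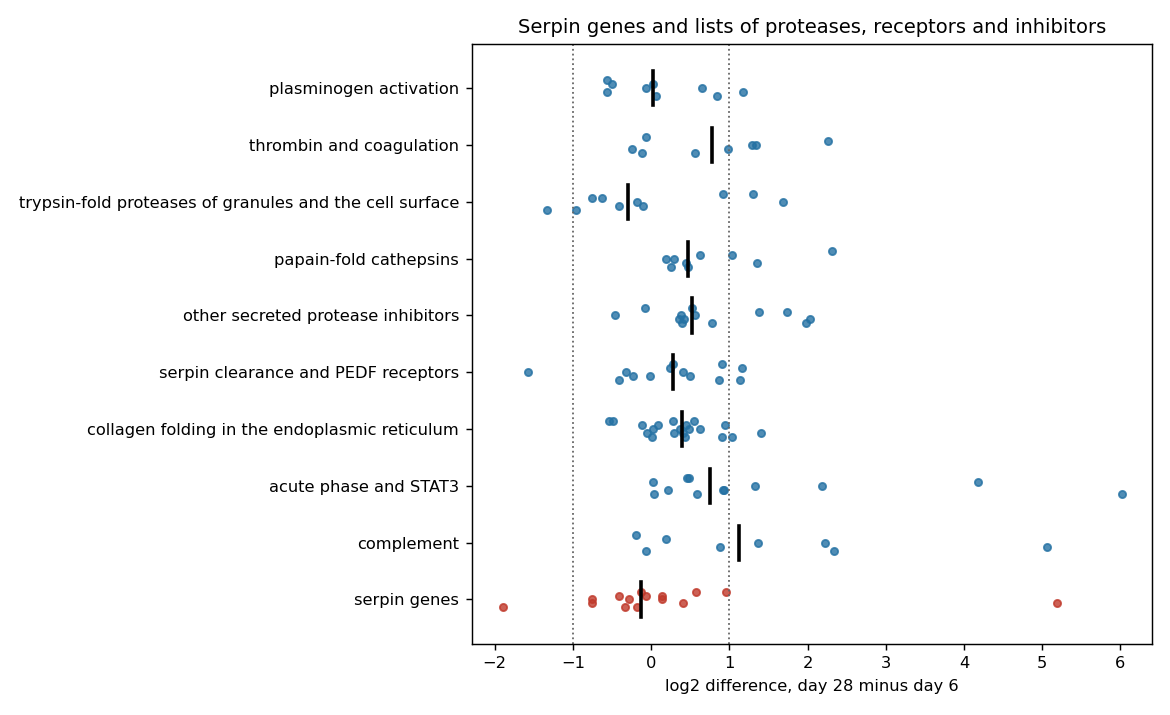
Differences for day 28 against day 6 of the genes described in 9 lists and of the 15 serpins (red), with 1 point per gene, log2 units, measured values. The list labelled papain-fold cathepsins also holds Ctsa, Ctsd and Lgmn, which are not of that fold. Black bars are medians and dotted lines mark 2-fold; the serpin median is -0.13 with Serpina3n far to the right, and the complement and thrombin lists have medians of 1.12 and 0.77 (1.08 and 0.63 with dim values raised to the background).

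Markers of the remaining cell types were also read on these arrays. Of 11 fibroblast markers 8 were above the background, with list means of 22.82, 23.49 and 23.25. Single genes moved more than these means. For day 28 against day 6, with dim values raised to the background, 2 of 8 described were 2-fold higher (5.46% of all genes) and 0 lower (3.48%). Ogn was at 24.29, 27.47 and 25.59, and Pdgfra was 3.06-fold higher on day 28 than on day 6. Of 9 endothelial markers 1 was above the background, Cdh5 at 23.70, 25.85 and 27.93. Cdh5 was higher at each later point like Serpina3n, while Pecam1 was below the background. The part of these markers in the result was not tested.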

How the data were processed

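The values are those the authors deposited as a series table of Affymetrix arrays on what was taken as a log2 scale. For the base, the summarization method and any added constant the sources give nothing, and base 2 was assumed. The sorted values of the 3 arrays were identical, so the table had been quantile normalized. It held 45101 probe sets, of which 34958 had 1 gene symbol in the platform annotation, 932 several and 9211 none listed. The array level says nothing of read depth; 1 array per time point limits the precision.

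Where a gene had several probe sets, the brightest on average represented it. A gene entered a comparison when either array passed the background, and 2-fold meant a log2 difference of at least 1. Where the dimmer array was at or below the background, the fold was computed against the background and written as at least that size. Probe sets were not compared in level with one another.

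All measured serpins were named. In all, 23 lists were used. Of each except the silent genes, up to 3 genes with the largest difference for day 28 against day 6 were picked. A fixed set of proteases, receptors and regulators was added. Not all genes picked are named above, and for some lists of cell type markers none of them is. The members, lists and rules were chosen with earlier results of these data known. The alternatives, 11 planned and 1 added after seeing the data, covered probe set choice, background, dim values, fold and scaling. Sequences came from RefSeq promoters (GRCm38.p6). Calculations used Python 3.11.15, numpy 2.4.6 and pandas 2.3.3, and were tested on simulated data.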

Additional observations from a re-analysis of the deposited data

How the results depend on the processing

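The 4 serpins 2-fold apart from day 6, and Serpina3n and Serpini1 for day 28 against day 14, kept their sign under the alternatives run. That held for 93 of 93 recomputed 2-fold differences. Of 524 recomputed differences of any size, 22 moved by more than the SD between probe sets and 30 had the other sign. Changes of fold threshold, background percentile or filter leave a gene's difference as it was, so those runs could not turn a sign. Nor could probe set choice for a gene with 1 probe set. The kept signs therefore say little beyond the scaling alternatives. The number of serpins 2-fold apart was 2 from day 6 to day 28, 4 over the step from day 6 to 14, and 2 over the step from day 14 to 28. A 1.5-fold threshold gave 5 from day 6 to day 28 and 6 over the later step. A 3-fold threshold gave 2 over the earlier step and 0 over the later one. With no filter on low values, which admits all 40 genes, the numbers were 8, 7 and 5. For day 28 against day 14 Serpini1 was lost both with the mean of all probe sets of a gene and with the arrays shifted to equal reference genes, which left 1 gene each. A background at the 75th percentile added Serpinb1a for day 28 against day 6, and equal reference genes added Serpini1 there.

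Scaling moved the balance of all genes. For day 28 against day 6, 765 were 2-fold higher and 465 lower as deposited, and 1250 and 255 with equal reference genes, whose shift moved the median from 0.01 to 0.25. For day 14 against day 6, 644 and 454 became 1866 and 81 with equal reference genes (median from -0.03 to 0.46), 881 and 269 with equal silent genes, and 554 and 618 with equal hybridization controls, the alternative added after seeing the data. For day 28 against day 14, 255 and 170 became 140 and 310 with equal reference genes (median from 0.03 to -0.22) and 187 and 222 with equal silent genes. Leaving out a replicate was not possible with 1 array each. No paired analysis was possible because each time point had 1 array.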

Other observations

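Values of probe sets annotated to several serpin genes, which belong to no comparison above, were as follows. The probe set shared by Serpina1a and Serpina1d was at 19.17, 17.42 and 16.72 on days 6, 14 and 28, and the one shared by Serpina1b, Serpina1c and Serpina1e at 21.38, 21.09 and 20.99, all below the background. By position, 11 members lay on chromosome 13, where 6 were above the background on at least 1 array, and 13 lay on chromosome 12, where 3 were.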
